A study of Homo sapiens with 12 samples.

Results

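Histone genes were examined across 12 RNA-seq libraries of the glioblastoma cell lines LN229 and U251, both long-established human lines. The members were the 88 genes that the deposited tables type as protein coding and whose names start with HIST1H, HIST2H, HIST3H, HIST4H, H2AF, H3F or H1F, of 58174 genes in all. Of these, 72 carry HIST names (the replication histones) and 16 are variant histones. LN229 cells, kept in 5% serum, and U251 cells, kept in 10% serum, received an siRNA against XRN2 (siXRN2), a control siRNA (siNT) or the transfection without an siRNA (mock). Each of the 6 groups held 2 libraries of RNA taken after 72 hours. No label says whether the libraries of a group came from separate cultures, so p-values measure the spread between libraries, which may be technical. All cells of a group were grown as a population of an established line, and each line stands for 1 tumour.

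Replication histones package newly made DNA. Most of their mRNAs end at a conserved stem-loop, bound by the protein SLBP, and carry no poly(A) tail. Some of these genes also make a longer, polyadenylated mRNA from a signal beyond the stem-loop. Variant histones (H2A.Z, macroH2A, H3.3 and the H1 linkers H1.0 and H1X) are made throughout the cell cycle from ordinary polyadenylated mRNAs. H2A.X is known to have both a stem-loop mRNA and a polyadenylated one. XRN2 is a nuclear exonuclease that degrades RNA from its 5′ end, downstream of the cleavage at the end of a transcript. The library kit named in the labels, the Illumina TruSeq RNA v2 kit, captures RNA by its poly(A) tail and does not mark the strand. A level below is therefore that of the polyadenylated RNA of a gene, and fewer cells with an mRNA cannot be told apart from less of it per cell.

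The 2 end signals are shown first because they mark the 2 kinds of histone mRNA end. Both were looked up in the GENCODE 29 transcripts (GRCh38), which cover 88 of the 88 members. Of the 72 replication histone genes, 24 had a transcript that ran at least 100 bases past a stem-loop, 9 had models that ended within 100 bases of it, and 39 had no stem-loop in the model. In the annotation, 33 of the 72 models hold the coding sequence alone, without the untranslated region where a stem-loop would lie. H2AFX was the only one of the 16 variant genes with a stem-loop, and its letters were found in no other member. In the lines below the stem-loop of 16 bases is in capitals with 5 flanking bases on each side.
H2AFX: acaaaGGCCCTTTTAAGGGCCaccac
HIST1H2AC: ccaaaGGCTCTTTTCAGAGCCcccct
HIST2H4A: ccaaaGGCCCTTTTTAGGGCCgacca
HIST1H3E: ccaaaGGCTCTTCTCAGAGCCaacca
The letters of the HIST1H2AC stem-loop were shared by 18 members and those of HIST2H4A by 3, while the HIST1H3E form was found in that gene alone. A poly(A) signal (AATAAA or ATTAAA, searched on the transcript strand in the last 50 bases of a transcript) stood in 23 of the 72 replication histone genes and in 14 of the 16 variant genes. Neither signal by itself divides the classes used below. The poly(A) signal is in capitals below for 3 genes whose transcripts hold both signals. The transcripts shown run on past the stem-loop for 821 bases in H2AFX, 1128 bases in HIST1H2AC and 1729 bases in HIST2H2BE.
H2AFX: tggactaattttATTAAAggattgtttttt
HIST1H2AC: ctggcatgaggtAATAAAaggtaatgcaaa
HIST2H2BE: gctattgttattAATAAAgttaccaattaa

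For the comparisons the replication histones were divided by general knowledge, not by these files, into 11 genes known to make polyadenylated transcripts as well and 61 others. Total exon reads summed over the 12 libraries came to 185187 for the variants, 5107 for the polyadenylated replication histones and 2934 for the other replication histones. The most read variant was H3F3B, with 64306 reads, and the most read replication histone was HIST1H2AC, with 1378 reads. In all, 13 members had no read in any library (1 of them, HIST1H3D_2, is listed with 0 exons, so it takes no exon reads), 42 had between 1 and 9 reads in their best library, and 33 reached 10 reads in at least 1 library. The count filter kept 30 members for testing: 9 variants, 10 polyadenylated replication histones and 11 others. Members that had to be high in 1 group to pass the filter are among them.

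Among the 42 members below 10 reads, HIST1H4E had 38 reads in all and at most 7 in a library. HIST4H4, an H4 gene on the polyadenylated list, had 2 and 1 reads in LN229 siXRN2 libraries, 0 and 2 in LN229 siNT and 4 and 5 in LN229 mock. It had 4 and 5 reads in U251 siXRN2 libraries, 3 and 2 in U251 siNT and 4 and 3 in U251 mock. The germ cell variants H1FOO and H1FNT and the H3.3-like gene H3F3C had no read, and the testis variants H2AFB1, H2AFB2 and H2AFB3 had 2, 3 and 3 reads in all 12 libraries together. H2AFY2, which encodes macroH2A2, reached 14 reads in its best library and 46 in all. With 0 reads counted, a true count of 3 cannot be told from 0, and 3 reads equal 0.381 to 0.605 CPM (read counts scaled to library size) here, for counting error only.

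The reads over 24 replication histone models that run past a stem-loop had a median of 88.5 per gene over the 12 libraries, and 15 of these genes were tested. The 9 models that end near the stem-loop had a median of 15 reads, with 3 tested. The 39 models with no stem-loop had a median of 3, with 3 tested: HIST1H1C, HIST1H2BK and HIST1H2BJ, all on the polyadenylated list. Of the 23 genes with a poly(A) signal 18 were tested. These counts describe gene models and reads together, because a longer model can also collect more reads.

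Many H2A and H2B genes stand head to head, and in some of these pairs the members differed in level. HIST1H2AC and HIST1H2BC start 219 bases apart on chromosome 6, yet averaged 11.1 and 1.49 RPKM (CPM per kilobase of exon, over 12 libraries). HIST1H2BK averaged 15.1 RPKM and its partner HIST1H2AH, 331 bases away, 0.209 RPKM from 6 reads. HIST2H2BE averaged 3.99 RPKM beside 0.925 RPKM for HIST2H2AC, and HIST3H2A 6.85 RPKM beside 0.170 RPKM for HIST3H2BB. In the last 3 of these pairs only the more abundant gene is known for polyadenylated transcripts, and in the first both are. Other pairs were closer: HIST1H2AE and HIST1H2BG, 283 bases apart, averaged 0.563 and 0.567 RPKM, and HIST1H2AG and HIST1H2BJ 1.39 and 2.14 RPKM.

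The promoters of 4 genes that recur in the results are printed because they show the elements that were searched for. HIST1H2BK and HIST1H2AC belong to head-to-head pairs of members, and HIST1H1C and H2AFX do not. They come from RefSeq (GRCh38.p14), from 250 bases before to 50 bases after the annotated start, and 75 of the 88 members matched that table. Capitals mark TATAAA (the TATA box), the CCAAT box and the octamer ATTTGCAT, each on either strand, and adjoining or overlapping matches run together.
HIST1H2BK, chr6:27146809-27147108, strand -: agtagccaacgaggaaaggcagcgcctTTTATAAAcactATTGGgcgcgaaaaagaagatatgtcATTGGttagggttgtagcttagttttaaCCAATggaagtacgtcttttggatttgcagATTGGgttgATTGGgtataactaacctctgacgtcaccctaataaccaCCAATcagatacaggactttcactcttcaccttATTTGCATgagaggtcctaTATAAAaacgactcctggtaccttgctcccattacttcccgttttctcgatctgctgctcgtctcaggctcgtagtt
HIST1H2AC, chr6:26123922-26124221, strand +: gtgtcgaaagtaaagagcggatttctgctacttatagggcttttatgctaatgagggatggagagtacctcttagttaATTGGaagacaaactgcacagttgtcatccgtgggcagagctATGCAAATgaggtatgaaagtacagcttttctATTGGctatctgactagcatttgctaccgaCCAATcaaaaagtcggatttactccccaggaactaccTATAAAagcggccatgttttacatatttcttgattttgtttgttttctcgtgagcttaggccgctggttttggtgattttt
HIST1H1C, chr6:26056421-26056720, strand -: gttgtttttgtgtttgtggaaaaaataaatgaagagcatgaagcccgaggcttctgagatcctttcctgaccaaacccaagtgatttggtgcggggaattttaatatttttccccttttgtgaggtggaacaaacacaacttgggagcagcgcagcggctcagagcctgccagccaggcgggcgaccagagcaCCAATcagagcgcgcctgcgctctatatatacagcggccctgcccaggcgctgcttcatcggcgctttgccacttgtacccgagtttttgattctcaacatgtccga
H2AFX, chr11:119095416-119095715, strand -: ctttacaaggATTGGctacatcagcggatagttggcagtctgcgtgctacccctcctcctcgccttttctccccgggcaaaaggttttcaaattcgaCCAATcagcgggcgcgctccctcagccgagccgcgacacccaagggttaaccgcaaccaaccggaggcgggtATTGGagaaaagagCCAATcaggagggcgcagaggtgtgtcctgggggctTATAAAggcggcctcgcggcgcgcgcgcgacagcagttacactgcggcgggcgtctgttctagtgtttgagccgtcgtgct
TATAAA was found in 63.6% of the 11 polyadenylated replication histone promoters, 68% of 50 other replication histone promoters and 28.6% of 14 variant promoters, against 14.0% of 27305 genes. CCAAT stood in 81.8%, 84% and 85.7% of the same 3 groups, against 39.7% of all genes. The octamer stood in 54.5%, 40% and 7.14%, against 2.19% of all genes. Within the replication histones it was found in 11 of 14 H2A and 14 of 18 H2B promoters. It was found in 1 of 10 H3, 0 of 6 H1 and 0 of 13 H4 promoters. The windows of head-to-head partners can overlap, so 1 match can count for both genes. HIST1H2BK and HIST1H2AC hold it, and HIST1H1C holds CCAAT but neither of the other 2 motifs. These matches are letters in a window, not tested sites.

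The knockdown was checked on its target. XRN2 had 33.5 and 25.6 CPM in LN229 siXRN2 libraries, 201.7 and 242.7 CPM in LN229 siNT and 229 and 235 CPM in LN229 mock. In U251 it had 31.1 and 26.2 CPM with siXRN2, 144 and 134 CPM with siNT and 138 and 143 CPM in mock. In both lines the siXRN2 libraries lay far below all 4 controls. The log2 fold change against siNT was -2.90 ± 0.17 in LN229 (± SE, edgeR quasi-likelihood test, adjusted p = 3.75e-06). It was -2.28 ± 0.17 in U251 cells (adjusted p = 6.50e-05).

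Libraries held 4846768 to 7469052 total exon reads. LN229 siNT replicate 1 stood apart: introns took 5.58% of its gene reads, against 7.60% to 9.55% in the other 11 libraries. Its difference from LN229 siNT replicate 2 ran against exon length (Spearman rho -0.63 across 10367 genes, which are not independent replicates), so shorter genes read higher in it. The 2 U251 mock libraries also differed more than other pairs (mean chi-square 27.2 per gene, with 19.4 for LN229 siNT and 1.73 to 7.49 for the other 4 groups). Glial and glioma markers, all 10 of them read, summed to 3411 to 6498 CPM in LN229 and 10105 to 18298 CPM in U251, where the mock pair was at 15932 and 10105 CPM. Germ line markers summed to at most 0.637 CPM, with 3 of 6 without a read.

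In LN229, 5 of the 9 tested variant histones fell after XRN2 knockdown against siNT (H2AFX, H2AFV, H2AFZ, H1FX and H1F0), by log2 fold changes of -0.59 to -1.14, and none rose. Without siNT replicate 1, and likewise without siXRN2 replicate 2, 0 of the 9 passed. Of the 14232 genes tested, 1.95% fell in the same comparison. All 9 tested variants had log2 fold changes below 0, with a median of -0.65, against -0.00 over all genes. Neither replication class had a member past the threshold. Their medians were 0.04 for the 10 polyadenylated genes, 5 above and 5 below 0, and 0.25 for the 11 others, 8 above and 3 below 0. Against mock, 1 variant fell, H2AFX, where 0.738% of all genes fell, and the median of the variants was -0.44, with H2AFJ at 0.31.

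**Figure D1:**
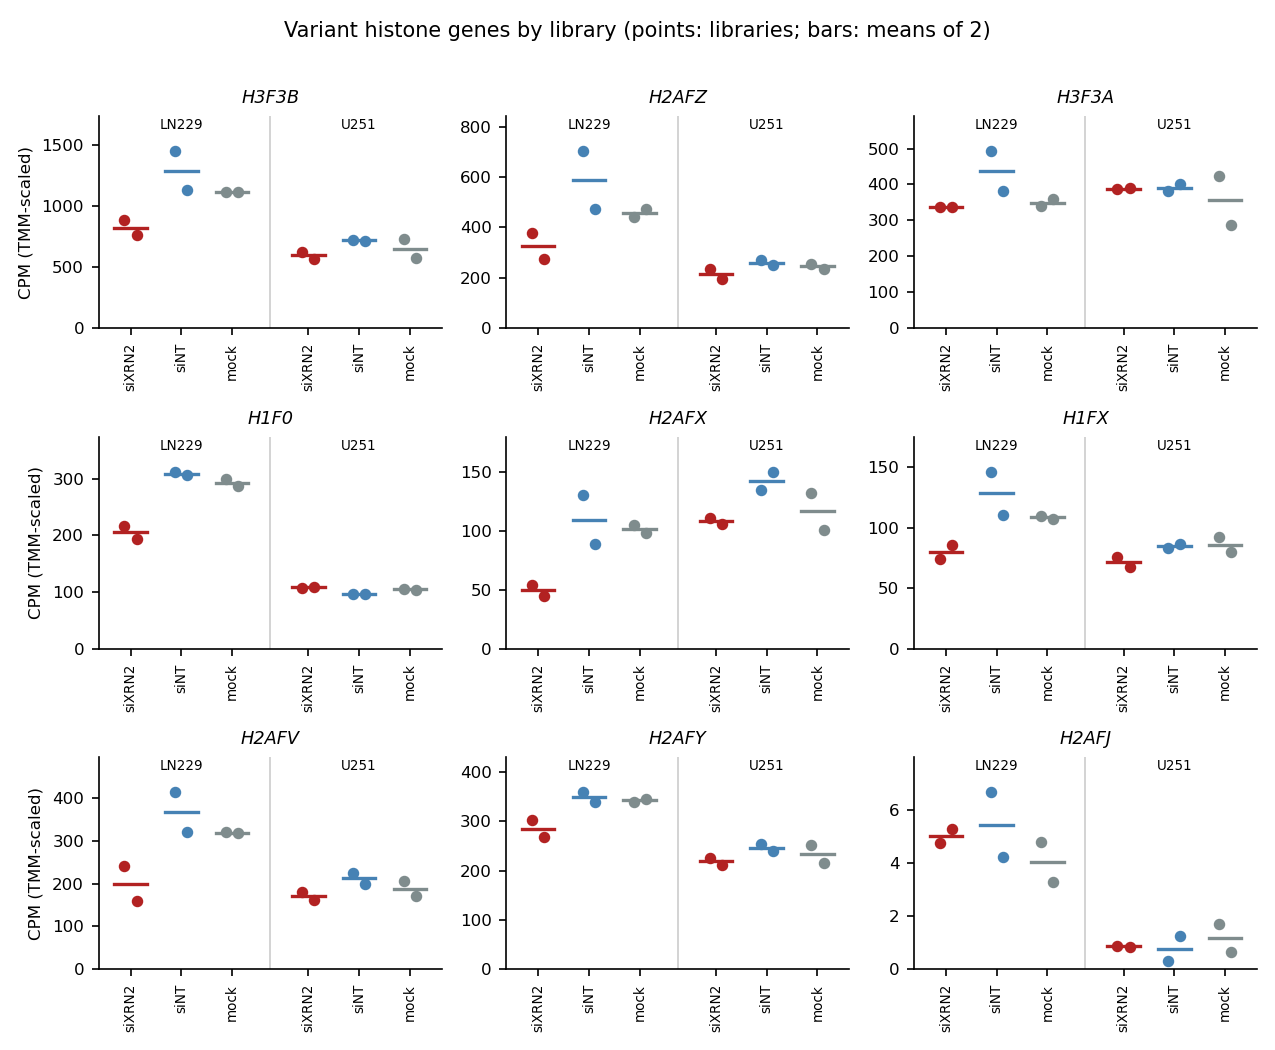
Level of the 9 tested variant histone genes in CPM (vertical axis, linear from 0) in each library, with siXRN2 left of siNT and mock in LN229 and then in U251. Points are libraries and bars the means of 2. In LN229 the siXRN2 points of all but H2AFJ lie below the 4 control points, and the higher siNT point is replicate 1 in every panel.

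H2AFX (chromosome 11, 119093854 to 119095467, minus strand) encodes H2A.X, the H2A form that is phosphorylated around DNA breaks. It had 54.0 and 45.1 CPM in LN229 siXRN2 libraries, 130.1 and 88.9 CPM in siNT and 105 and 97.7 CPM in mock. Both siXRN2 values lay below all 4 controls, and the gap to the nearest control was wider than the gap between the siXRN2 libraries. The log2 fold change was -1.14 against siNT (SE 0.19, edgeR adjusted p = 0.014) and -1.03 against mock (SE 0.19, adjusted p = 0.026). Its U251 values were 111 and 106 CPM with siXRN2, 135 and 149.9 CPM with siNT and 132 and 101 CPM in mock, with log2 fold changes of -0.39 against siNT (SE 0.19, adjusted p = 1) and -0.10 against mock. The U251 siXRN2 values lay below siNT but among the mock values.

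H2AFZ and H2AFV encode the H2A.Z proteins, which mark promoters. H2AFZ (chromosome 4, 99948086 to 99950388) had 378 and 273 CPM in LN229 siXRN2 libraries, 702 and 471 CPM in siNT and 442 and 475 CPM in mock. Its log2 fold change against siNT was -0.85 (SE 0.20, adjusted p = 0.040), a fall past the threshold. H2AFV (chromosome 7, 44826791 to 44848083) had 241 and 158 CPM with siXRN2, 413 and 321 CPM with siNT and 320.2 and 317 CPM in mock, and fell by 0.88 (SE 0.20, adjusted p = 0.034). Against mock the log2 fold changes were -0.49 for H2AFZ (adjusted p = 0.23) and -0.67 for H2AFV (adjusted p = 0.10), neither past the threshold. In both genes LN229 siNT replicate 1 was the highest of the 6 libraries.

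In U251, H2AFZ had 236 and 196 CPM with siXRN2, 269.7 and 249.8 CPM with siNT and 256 and 237 CPM in mock, the siXRN2 values being the lowest. H2AFV had 181 and 162 CPM with siXRN2, 225 and 199.7 CPM with siNT and 205 and 172 CPM in mock. Its siXRN2 values lay below both siNT values but overlapped with mock. Log2 fold changes against siNT were -0.26 and -0.31, both with an adjusted p of 1.

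Both tested linker histone variants fell in LN229 against siNT. H1F0 (chromosome 22, 37805093 to 37807436), the H1.0 gene, had 217 and 194 CPM in LN229 siXRN2 libraries, 312 and 306 CPM in siNT and 299 and 286 CPM in mock. Its 4 control values lay close together and both siXRN2 values well below them. Against siNT it fell, at -0.59 on the log2 scale (SE 0.12, edgeR adjusted p = 0.027), and it was at -0.51 against mock (SE 0.12, adjusted p = 0.059). The U251 libraries had 106 and 109.6 CPM of it with siXRN2, 96.2 and 96.0 CPM with siNT and 105 and 103 CPM in mock (0.17 against siNT, SE 0.13, adjusted p = 1). H1FX (chromosome 3, 129314771 to 129316277), the H1X gene, had 74.5 and 85.7 CPM in LN229 siXRN2 libraries, 146 and 111 CPM in siNT and 110.1 and 107 CPM in mock. It fell by 0.68 against siNT (SE 0.16, adjusted p = 0.038) and was at -0.44 against mock (adjusted p = 0.18). In U251 it had 75.9 and 67.5 CPM with siXRN2, 83.4 and 86.7 CPM with siNT and 92.1 and 80.2 CPM in mock, again with the siXRN2 values lowest (-0.24 against siNT, adjusted p = 1).

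H3F3A and H3F3B encode the same H3.3 protein, and neither passed the threshold in a knockdown comparison. H3F3B (chromosome 17, 75776434 to 75785893) had 890.3 and 762 CPM in LN229 siXRN2 libraries, 1451 and 1135 CPM in siNT and 1121 and 1121 CPM in mock, with a log2 fold change of -0.65 against siNT (SE 0.16, adjusted p = 0.051). H3F3A (chromosome 1, 226061851 to 226072001) had 337 and 338 CPM with siXRN2, 492 and 381 CPM with siNT and 339 and 359.6 CPM in mock (-0.37, SE 0.18, adjusted p = 0.24). The siXRN2 values of both genes were the lowest in LN229, for H3F3A by a margin of about 1 CPM. In U251, H3F3B had 628 and 571 CPM with siXRN2, 724 and 719.5 CPM with siNT and 733 and 572 CPM in mock. H3F3A had 386 and 391 CPM with siXRN2, 383 and 401 CPM with siNT and 423 and 288 CPM in mock, with full overlap.

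H2AFY, the macroH2A1 gene, had 302 and 269 CPM in LN229 siXRN2 libraries, 359 and 339 CPM in siNT and 340.0 and 345 CPM in mock (-0.29 against siNT, SE 0.13, adjusted p = 0.22). U251 libraries had 225 and 212 CPM of H2AFY with siXRN2, 253 and 239.7 CPM with siNT and 252 and 215 CPM in mock. H2AFJ, the H2A.J gene, was low: 4.75 and 5.26 CPM in LN229 siXRN2 libraries, 6.66 and 4.21 CPM in siNT and 4.80 and 3.30 CPM in mock, with overlapping groups. In U251 it had at most 1.72 CPM in a library, from 9 raw reads.

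Counted by library rather than by test, 8 of the 9 variants had both LN229 siXRN2 values below all 4 siNT and mock values, H2AFJ being the exception, where 16.9% of all genes did. No variant had both above them, where 16% of all genes did. Summed over the 16 variants, LN229 siXRN2 libraries held 2315 ± 260.5 CPM, siNT libraries 3585 ± 604 CPM and mock libraries 3097 ± 21.4 CPM (SD, n = 2 each). H3F3B supplied the largest part of each sum. The summed level of the 10 glial and glioma markers was also lower, at 4346 and 3411 CPM in LN229 siXRN2 libraries. It was 6498 and 5136 CPM in siNT and 5162 and 5039 CPM in mock. VIM supplied the largest part of each sum, with 2473 and 1870 CPM with siXRN2. It had 4172 and 3075 CPM with siNT and 3174 and 3064 CPM in mock. None of the 10 passed against siNT, with 7 below 0 and 3 above 0. The summed level of the 4 neuronal markers, of which MAP2 was the most abundant, lay the other way. It was 212 and 199 CPM with siXRN2, 141 and 189.6 CPM with siNT and 177 and 189 CPM in mock. Of the 4 markers 3 were tested, with 2 above and 1 below 0 against siNT, and none passed. SNAP25 had 30.0 and 38.2 CPM with siXRN2, 28.8 and 27.5 CPM with siNT and 22.7 and 20.6 CPM in mock. Its siXRN2 values lay above all 4 controls, where 16% of all genes did. MAP2 had 155 and 137 CPM with siXRN2, 90.4 and 132 CPM with siNT and 126 and 145 CPM in mock, with overlap. SYT1 had 26.2 and 23.0 CPM with siXRN2, 21.2 and 30.5 CPM with siNT and 28.2 and 23.1 CPM in mock, with overlap. RBFOX3 had at most 8 reads in a library. The part of these markers in the variant result was not tested.

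The LN229 calls against siNT depended on single libraries. Without siNT replicate 1, the library that stood apart, 0 of the 5 remained past the threshold: H2AFX was at -0.81 and H1F0 at -0.54, both with an adjusted p of 0.053, H2AFV at -0.65 (0.15), H2AFZ at -0.50 (0.18) and H1FX at -0.44 (0.14). Without siXRN2 replicate 2 also 0 variants passed, with H2AFX at -1.02 (adjusted p = 0.22) and H1F0 at -0.51 (0.31). Without siNT replicate 2, 7 of the 9 variants passed, and without siXRN2 replicate 1, 4 did. The LN229 mock and U251 libraries do not enter the means compared, but they share the estimate of the spread. Without any 1 of the LN229 mock, U251 siNT or U251 siXRN2 libraries 1 variant passed, and without either U251 mock library 6 did. A fit on the LN229 libraries alone, with less to estimate the spread from, called 0. The direction held: 8 or 9 of the 9 variants were below 0 in each of these fits, H2AFJ being above 0 without siNT replicate 1.

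The H2AFX call against mock does not use that library in its means. It was absent without siXRN2 replicate 2, without either LN229 mock library and without any 1 of the U251 siNT or siXRN2 libraries. H1F0 and H2AFX were the variants whose LN229 log2 fold changes against siNT and against mock were closest to each other among the 5, at -0.59 and -0.51 and at -1.14 and -1.03.

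In U251 no histone member passed the threshold against siNT, where XRN2 itself was the only gene of 14232 called (0.00703%); edgeR put 553 genes under 0.05 before adjustment, and 9 were called by DESeq2. Against mock no member passed, where 0.0492% of all genes did. The class medians against siNT were -0.24 for the variants, 7 of 9 below 0, 0.47 for the polyadenylated replication histones, 7 of 10 above 0, and 0.23 for the others, 8 of 11 above 0, against 0.00 over all genes. Against mock, which shares the siXRN2 libraries with that comparison, they were -0.12, 0.35 and 0.23.

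**Figure D2:**
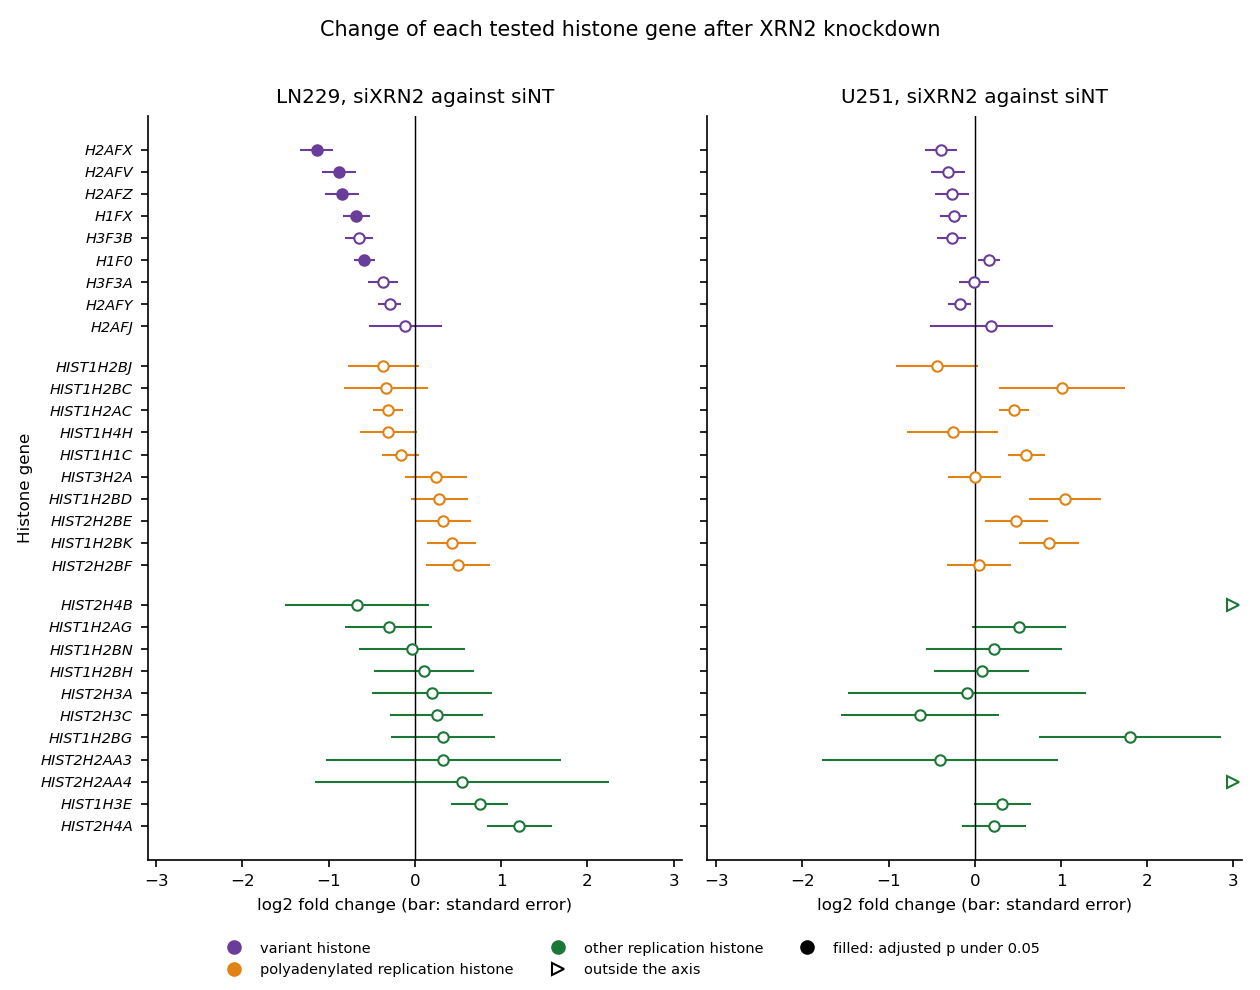
Log2 fold change of siXRN2 against siNT (horizontal axis) with its standard error for the 30 tested histone genes, in LN229 on the left and U251 on the right, grouped by class. Filled points passed an adjusted p of 0.05, and triangles lie outside the axis. The 9 tested variants all lie left of 0 in LN229, and 7 of 10 polyadenylated replication histones lie right of 0 in U251.

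For 4 of the 10 polyadenylated replication histones the U251 siXRN2 libraries were the highest of that line. HIST1H1C, HIST1H2AC, HIST1H2BD and HIST1H2BK had both U251 siXRN2 values above all 4 siNT and mock values, where 13.8% of all genes did. The same 4 had an unadjusted p under 0.05 by edgeR against siNT, as did 553 of all 14232 genes, and an adjusted p of 1. Against mock 1 of the 10 had an unadjusted p under 0.05, as did 1526 of all genes. The U251 siNT libraries themselves had 8 of the 10 below 0 against mock, with a median of -0.22. Of the other replication histones HIST1H2BG and HIST1H3E, and of the variants H1F0, also lay above all 4. No polyadenylated gene lay below all 4, where 10.6% of all genes did, while H1FX, H2AFZ and HIST2H3C did. HIST2H3C, a copied gene, had 2 and 2 raw reads in U251 siXRN2 libraries, 3 and 3 in siNT and 3 and 4 in mock. HIST1H2BG had 4 and 4 raw reads in U251 siXRN2 libraries, 1 and 1 in siNT and 0 and 2 in mock.

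HIST1H1C (chromosome 6, 26055787 to 26056428), which encodes the linker histone H1.2, had 14.0 and 14.7 CPM in U251 siXRN2 libraries, 9.07 and 9.86 CPM in siNT and 13.2 and 9.36 CPM in mock. Its log2 fold change against siNT was 0.60 (SE 0.21, edgeR adjusted p = 1), and 1 mock library came near the siXRN2 values. In LN229 it had 10.2 and 10.9 CPM with siXRN2, 12.1 and 11.5 CPM with siNT and 12.2 and 10.0 CPM in mock (-0.16, SE 0.22).

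HIST1H2BK (chromosome 6, 27146418 to 27146798), an H2B gene, had 5.05 and 4.39 CPM in U251 siXRN2 libraries, 2.23 and 2.99 CPM in siNT and 2.68 and 3.23 CPM in mock (0.86 against siNT, SE 0.35, edgeR adjusted p = 1). In LN229 it had 9.09 and 11.7 CPM with siXRN2, 9.48 and 6.06 CPM with siNT and 6.88 and 5.08 CPM in mock (0.43, SE 0.28, adjusted p = 0.40). There 1 siNT library reached the siXRN2 range. HIST1H2BK was the polyadenylated gene with the largest LN229 change against mock, 0.80 (SE 0.28, adjusted p = 0.18).

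HIST1H2AC, an H2A gene, had 21.8 and 24.5 CPM in U251 siXRN2 libraries, 18.5 and 15.1 CPM in siNT and 15.7 and 18.2 CPM in mock (0.46, SE 0.17, edgeR adjusted p = 1). In LN229 it had 16.7 and 16.5 CPM with siXRN2, 19.4 and 21.7 CPM with siNT and 16.5 and 18.3 CPM in mock (-0.31, SE 0.18). HIST1H2BD, an H2B gene, had 4.75 and 5.40 CPM in U251 siXRN2 libraries, 1.43 and 3.52 CPM in siNT and 4.40 and 3.55 CPM in mock (1.05, SE 0.41, edgeR adjusted p = 1). Its lowest library held 9 raw reads. In LN229 it had 7.33 and 13.5 CPM with siXRN2, 8.47 and 8.42 CPM with siNT and 7.68 and 7.49 CPM in mock, the siXRN2 libraries spanning the controls.

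**Figure D3:**
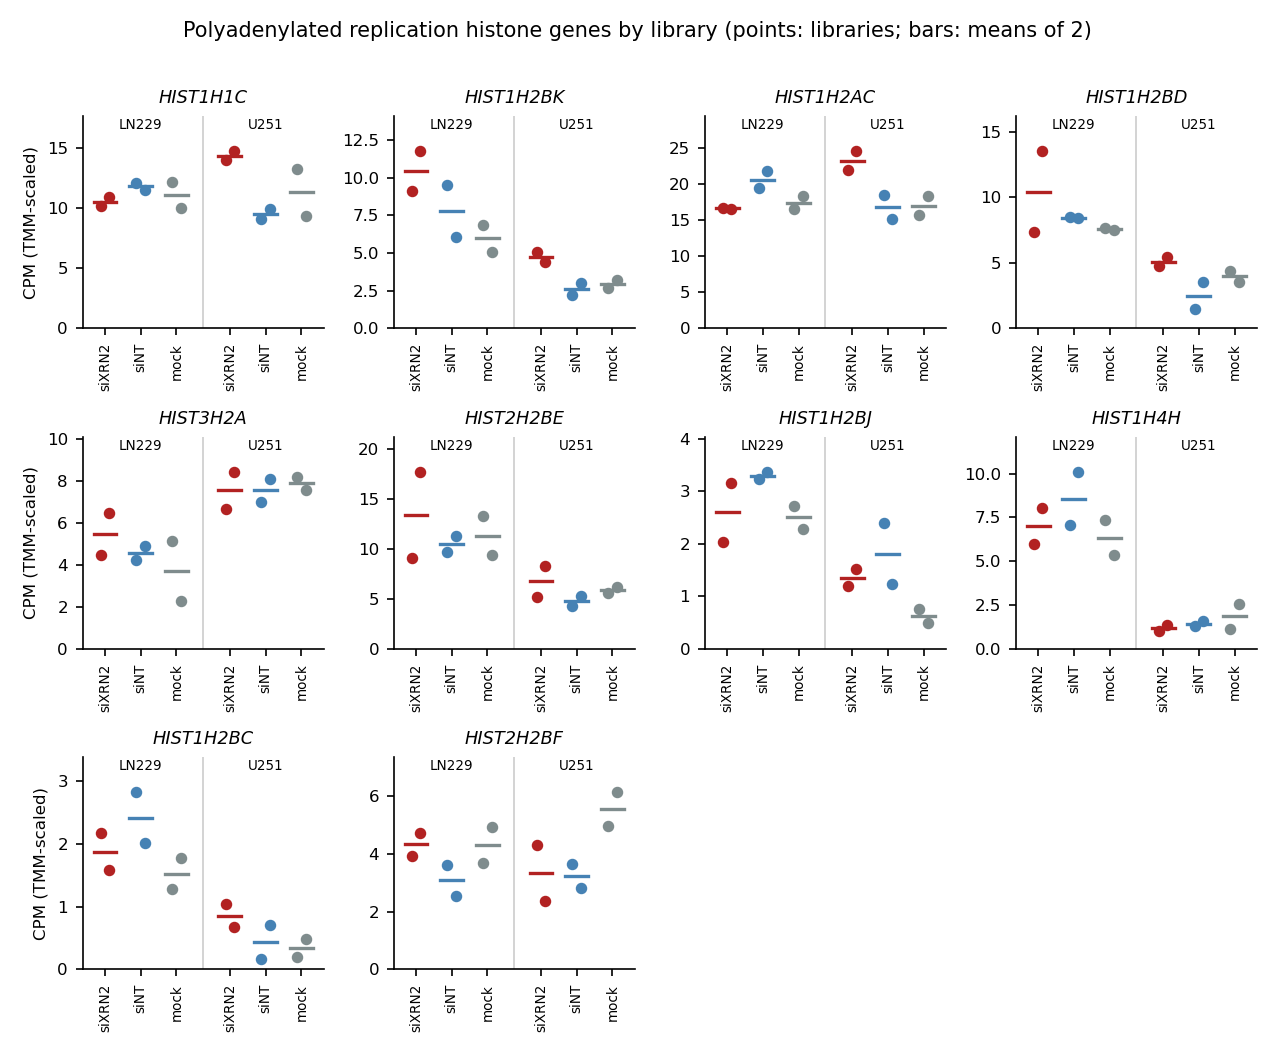
Level of the 10 tested polyadenylated replication histone genes in CPM (vertical axis, linear from 0) in each library, with siXRN2 left of siNT and mock in each line. Points are libraries and bars the means of 2. In U251 both siXRN2 points of HIST1H1C, HIST1H2BK, HIST1H2AC and HIST1H2BD lie above the 4 control points.

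The remaining polyadenylated genes did not separate. HIST2H2BE had 9.09 and 17.7 CPM in LN229 siXRN2 libraries, 9.68 and 11.3 CPM in siNT and 13.3 and 9.39 CPM in mock, with overlap. HIST3H2A had 4.48 and 6.49 CPM in LN229 siXRN2 libraries, 4.24 and 4.88 CPM in siNT and 5.12 and 2.28 CPM in mock. LN229 siXRN2 replicate 2 was the higher of its pair for both. In U251, HIST2H2BE had 5.20 and 8.27 CPM with siXRN2, 4.30 and 5.28 CPM with siNT and 5.54 and 6.13 CPM in mock. HIST3H2A had 6.69 and 8.44 CPM with siXRN2, 7.01 and 8.10 CPM with siNT and 8.22 and 7.59 CPM in mock. HIST1H4H, HIST1H2BJ, HIST1H2BC and HIST2H2BF had log2 fold changes against siNT between -0.36 and 0.50 in LN229 and between -0.43 and 1.01 in U251. Raw reads in U251 were few for the first 3 of them. With siXRN2 and then siNT, HIST1H4H had 7 and 8 against 8 and 9. HIST1H2BJ had 8 and 9 against 15 and 7, and HIST1H2BC 7 and 4 against 1 and 4.

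As a sum over the 11 genes, the polyadenylated class had 82.9 ± 16.5 CPM in LN229 siXRN2 libraries, 81.1 ± 1.49 CPM in siNT and 72.4 ± 6.91 CPM in mock. The U251 sums were 69.1 ± 4.78 CPM with siXRN2, 51.0 ± 0.806 CPM with siNT and 57.9 ± 0.529 CPM in mock (SD, n = 2 each). The U251 siXRN2 libraries, at 65.7 and 72.4 CPM, lay above the 4 controls, at 50.5 to 58.3 CPM. The 61 other replication histones summed to 52.9 ± 16.5 CPM with siXRN2, 42.6 ± 0.295 CPM with siNT and 39.3 ± 3.59 CPM in mock in LN229, and to 39.4 ± 3.45 CPM with siXRN2, 30.1 ± 1.79 CPM with siNT and 33.5 ± 0.520 CPM in mock in U251.

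Among the other replication histones, HIST1H3E, an H3 gene with only unique reads, had 5.02 and 8.59 CPM in LN229 siXRN2 libraries, 4.84 and 3.20 CPM in siNT and 3.36 and 4.44 CPM in mock (0.75 against siNT, SE 0.33, adjusted p = 0.20). In U251 it had 5.35 and 5.74 CPM with siXRN2, 4.46 and 4.40 CPM with siNT and 4.59 and 4.84 CPM in mock (0.32, SE 0.33). Its siXRN2 libraries were the highest in both lines. In LN229 HIST1H2BG and HIST2H4A, a copied gene, also lay above all 4 controls, so 3 of the 11 did, where 16% of all genes did. HIST1H2BG rests on at most 12 raw reads in a library.

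Read sharing set what could be said of the copied genes. The tables give, beside the total exon reads of a gene, those counted as unique. The unique share of the class sum was 88.6% to 95.6% over libraries for the polyadenylated replication histones, 41.4% to 54.1% for the others and 74.1% to 84.2% for the variants. H1F0, H2AFX, HIST1H2AC, HIST1H1C, HIST1H3E and HIST3H2A had only unique reads in all 12 libraries. H3F3B, H2AFZ and H2AFV had medians of 99.9%, 99.7% and 98.8%. H3F3A had 11.7% to 14.3%, H1FX 47.3% to 58.3% and H2AFY 52.5% to 59.7%. The processed pseudogenes of H3F3A have no annotated exon in the tables and are listed at 0, so they take no exon reads there.

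**Figure D4:**
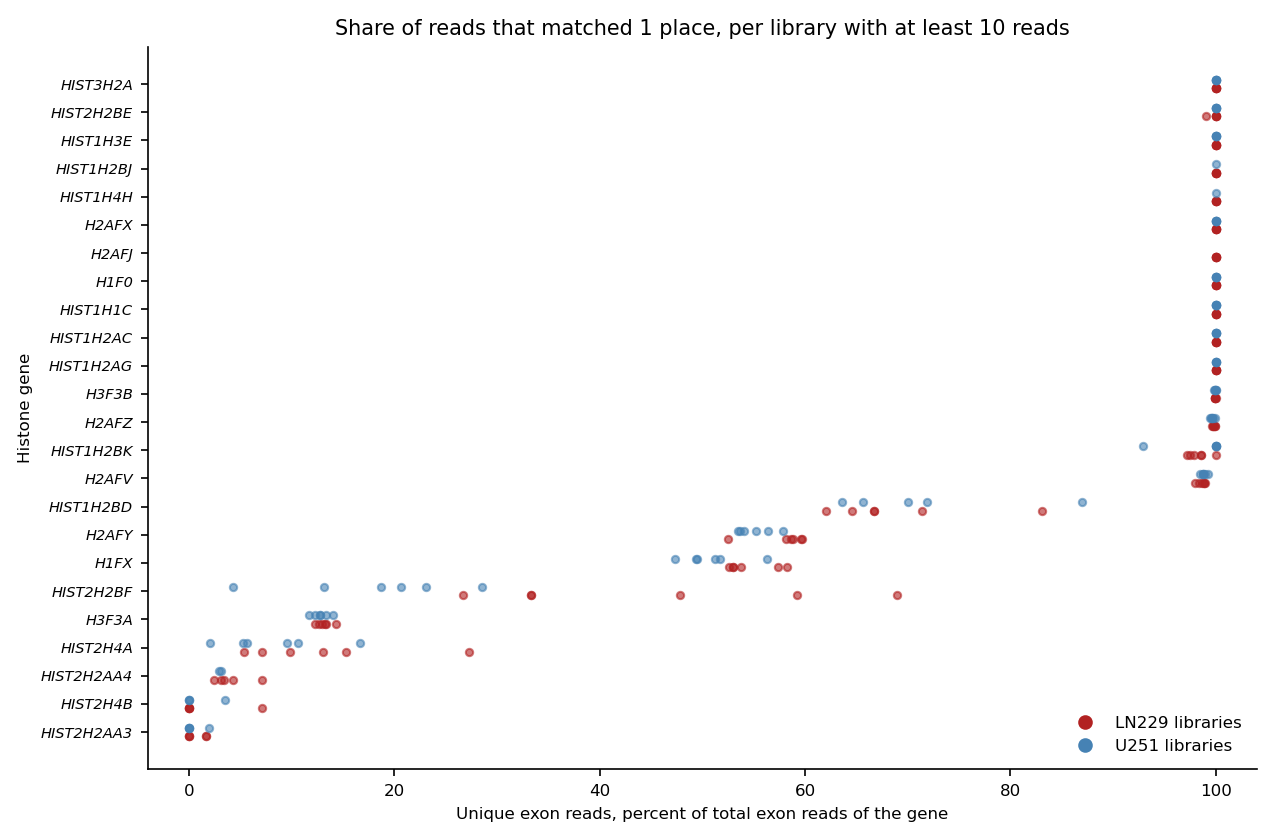
Unique exon reads as a percent of the total exon reads of each gene (horizontal axis), for histone genes with at least 10 total reads in 6 or more libraries. Points are libraries, LN229 drawn apart from U251. HIST2H2AA3, HIST2H4B, HIST2H2AA4 and HIST2H4A sit at the low end with H3F3A, and 15 genes sit near 100%.

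HIST2H2BF had the widest spread of unique share among genes with at least 10 reads in every library. The share was 69.0% of 29 reads (Wilson 95% interval 50.8 to 82.7%) in LN229 siXRN2 replicate 1 and 4.35% of 23 reads (0.772 to 21.0%) in U251 siNT replicate 1. In LN229 it was 69.0% and 59.3% with siXRN2, 33.3% and 26.7% with siNT and 47.8% and 33.3% in mock, the siXRN2 libraries being the highest. In U251 it was 20.7% and 28.6% with siXRN2, 4.35% and 18.8% with siNT and 23.1% and 13.2% in mock. These intervals cover counting error only, and the share was not tested between groups.

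The pairs on chromosome 1 show how reads were placed. HIST2H2AA3 had 59 and 0 raw reads in the 2 LN229 siNT libraries where its copy HIST2H2AA4 had 0 and 42, so each library gave all of the pair's reads to 1 of the copies, a different one each time. In LN229 siXRN2 libraries HIST2H2AA3 had 34 and 57 and HIST2H2AA4 29 and 40. Of 392 reads of HIST2H2AA3 3 were unique. Summed, the pair had 8.55 and 17.0 CPM in LN229 siXRN2 libraries, 11.9 and 7.07 CPM in siNT and 7.36 and 10.5 CPM in mock, with a log2 fold change of 0.42 against siNT (SE 0.37, adjusted p = 0.53). Values of single copies, here and elsewhere, carry this limit.

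HIST2H4A and HIST2H4B encode H4. In LN229 siXRN2 libraries they had 71 and 72 raw reads (HIST2H4A) and 14 and 22 (HIST2H4B), against 11 and 42 and 32 and 16 in siNT. Summed, the pair had 11.5 and 16.5 CPM with siXRN2, 8.67 and 9.77 CPM with siNT and 8.0 and 8.76 CPM in mock, the siXRN2 values being the highest. The log2 fold change of the sum was 0.59 against siNT (SE 0.24, adjusted p = 0.17), where HIST2H4A alone gave 1.21 (SE 0.38, adjusted p = 0.088). In U251 the sum was 11.0 and 13.2 CPM with siXRN2, 7.64 and 6.69 CPM with siNT and 9.75 and 12.4 CPM in mock (0.75 against siNT, SE 0.24, adjusted p = 1), and the mock values overlapped with siXRN2. HIST2H4A also overlaps HIST2H3C on the other strand by 230 bases, and reads there cannot be told apart without strand.

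**Figure D5:**
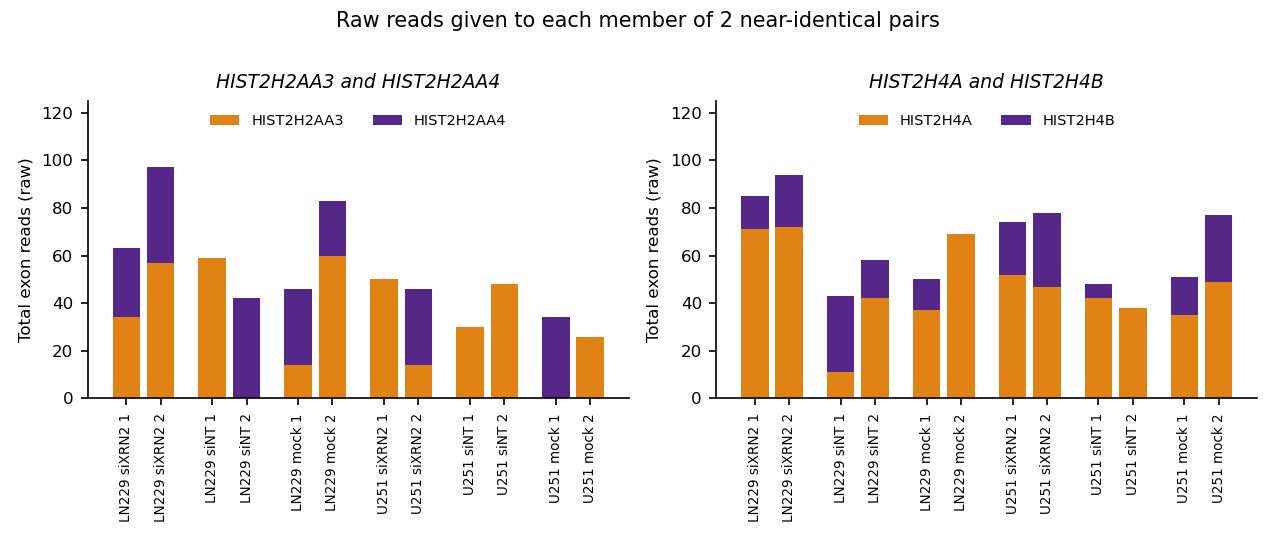
Raw total exon reads (vertical axis, linear from 0) of HIST2H2AA3 and HIST2H2AA4 (left) and HIST2H4A and HIST2H4B (right), stacked for each of the 12 libraries, siXRN2 before siNT and mock in each line. The split between the copies changes from library to library, as in LN229 siNT, with 59 and 0 reads in replicate 1 and 0 and 42 in replicate 2.

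Some reads lay outside the annotated exons of replication histones. Reads listed as intronic came to 519 over the 12 libraries for HIST1H2AC, 444 for HIST2H2BF and 303 for HIST1H4H. They came to 267 for HIST2H4A, 253 for HIST1H2BE and 221 for HIST1H2BK, a gene with 1 exon in the tables. For HIST1H2AC they were 54 and 67 in LN229 siXRN2 libraries, 6 and 37 in siNT and 43 and 50 in mock. In U251 they were 55 and 64 with siXRN2, 33 and 13 with siNT and 31 and 66 in mock. For HIST1H2AC the LN229 siXRN2 counts were the highest of that line, and LN229 siNT replicate 1, the library low in introns, held the lowest. Other genes differed. HIST1H2BE had 23 and 25 in LN229 siXRN2 libraries, the lowest of that line, 31 and 28 in siNT and 33 and 31 in mock. The LN229 siXRN2 counts of HIST2H2BF, HIST1H4H, HIST2H4A and HIST1H2BK overlapped with controls. Spliced reads (over a junction) came to 134 for HIST1H2AC, 106 for HIST1H2BD and 90 for HIST2H4A. These raw reads are not scaled for depth and were not tested.

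The control siRNA by itself moved no member past the threshold in LN229 or in U251, where 0% of all genes were called in either line. Before adjustment 647 genes in LN229 and 682 in U251 were under 0.05 by edgeR, and 1 and 0 genes were called by DESeq2. All 9 tested variants were above 0 in LN229 siNT against mock, with a median of 0.21, and 6 of 9 in U251, with a median of 0.08. The polyadenylated class had medians of 0.29 in LN229 and -0.22 in U251.

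Whether the knockdown differed between the lines was tested as an interaction. No member passed, and 0% of all genes did, with 945 genes at an unadjusted p under 0.05 and 15 called by DESeq2. All 9 tested variants had a lower log2 fold change in LN229 than in U251, with a median difference of -0.44, against -0.03 over all genes. The difference was -0.76 for H1F0 (SE 0.18, adjusted p = 0.53) and -0.75 for H2AFX (SE 0.27, adjusted p = 0.71). HIST1H1C, HIST1H2AC and H1F0 had both siXRN2 libraries below both siNT libraries in LN229 and above both in U251, as did 2.53% of all genes. The polyadenylated class had a median difference of -0.29, 7 of 10 below 0.

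The lines differed before knockdown. Line and serum cannot be told apart in any comparison of LN229 with U251, since LN229 was kept in 5% and U251 in 10% serum. The 2 U251 mock libraries used here also differed more than other pairs (mean chi-square 27.2 per gene). In mock cells 13 members were higher in LN229, where 28% of all genes were, and 1 was lower, where 26.9% were. Of the variants 6 of 9 were higher, of the polyadenylated replication histones 6 of 10, and of the others 1 of 11, the copied gene HIST2H3A. H1F0 had 299 and 286 CPM in LN229 mock and 105 and 103 CPM in U251 mock (log2 1.49, SE 0.13, adjusted p = 6.1e-07). H3F3B (0.78, adjusted p = 0.0014), H2AFZ (0.90, adjusted p = 0.0020) and HIST1H4H (1.71, adjusted p = 0.0025) followed. HIST1H4H had 7.36 and 5.33 CPM in LN229 mock and 1.15 and 2.58 CPM in U251 mock, the latter from 6 and 16 raw reads. For all 4 the LN229 values lay above both U251 values.

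HIST3H2A was the member that was lower in LN229, at 5.12 and 2.28 CPM in LN229 mock and 8.22 and 7.59 CPM in U251 mock (-1.12, SE 0.35, adjusted p = 0.014). Without LN229 mock replicate 2 its log2 fold change was -0.62 (adjusted p = 0.17), and the call was also absent without U251 mock replicate 1 (-1.07, adjusted p = 0.052). Over all alternatives it passed in 18 of 21. The next 3 on that side did not pass: HIST2H4B, a copied gene (-1.98, adjusted p = 0.11), H2AFX (-0.20, adjusted p = 0.39) and HIST2H2BF (-0.36, adjusted p = 0.39). HIST2H3A and its copy HIST2H3C, whose reads were never unique, gave 2.39 as a sum (SE 0.61, adjusted p = 0.0047), from 18 and 36 raw reads in LN229 mock and 4 and 4 in U251 mock.

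Genes around the histones were read beside them. In LN229 siXRN2 against siNT 0 of 19 genes of histone mRNA 3′ end formation, transcription and decay (SLBP, NPAT, LSM10 and others) passed, with a median of -0.14, and in U251 0 of 19, with a median of -0.01. Of 25 histone chaperones and exchange factors 1 fell in LN229, ANP32E, a chaperone that removes H2A.Z from chromatin, at -1.12 on the log2 scale (SE 0.21, edgeR adjusted p = 0.022), where 1.95% of all genes fell. Against mock it was at -1.08 (SE 0.21, adjusted p = 0.032). In U251 none of the 25 passed, and ANP32E was at -0.27 (SE 0.21, adjusted p = 1).

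In LN229, S phase genes moved beside the variants without passing the threshold. All 15 (MCM2 to MCM7, PCNA, RRM2, E2F1 and others) were below 0 in LN229 siXRN2 against siNT, with a median of -0.61. In U251 14 of 15 were, with a median of -0.20, and 0 of 15 were called in either line. Against mock all 15 were below 0 in LN229 (median -0.51), but 11 of 15 were above 0 in U251 (median 0.15). The U251 siNT libraries themselves had 15 of 15 above 0 against mock, with a median of 0.35. Their summed level was 2741 and 1602 CPM in LN229 siXRN2 libraries, 3437 and 3162 CPM in siNT and 3062 and 3164 CPM in mock. LN229 siXRN2 replicate 2, the lowest, was also the lower of its pair for 6 of the 8 variants that lay below all controls, H3F3A and H1FX being the exceptions. The part of S phase genes in the histone results was not tested.

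Endothelial and blood markers were low in LN229 but not level. The 4 endothelial markers, of which none passed the threshold and all 4 were above 0 against siNT, summed to 7.33 and 8.94 CPM in LN229 siXRN2 libraries, 3.23 and 4.21 CPM in siNT and 4.32 and 3.55 CPM in mock. The 5 blood markers summed to 5.16 and 1.40 CPM with siXRN2, 9.68 and 8.42 CPM with siNT and 8.32 and 7.36 CPM in mock. In U251 both sums were higher and lay the other way. The endothelial sum was 15.2 and 13.7 CPM with siXRN2, 16.1 and 18.1 CPM with siNT and 18.2 and 21.3 CPM in mock. The U251 blood sum was 66.0 and 69.7 CPM with siXRN2, 48.4 and 63.8 CPM with siNT and 47.4 and 52.6 CPM in mock. Nearly all of the blood sum in either line was CD68, while HBB had no read and PTPRC and CD3E had 0 reads in most libraries. Their part in the variant result was not tested.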

How the data were processed

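Poly(A) RNA-seq libraries were made from 1 ug of total RNA with the Illumina TruSeq RNA LT v2 kit, per the labels' protocols. Per the file headers, each library's table gives read counts per gene (total, unique, intron and junction reads) beside TPM and RPKM values. The deposited TPM and RPKM values were not used. The deposited counts of total exon reads were the basis of all results. GRCh37 and hg19 are the builds in the submitters' processing notes. Of 57836 genes shared with GENCODE 29, 56000 (96.8%) have its GRCh38 coordinates, so GRCh38 is used here. For the aligner and the counter, no name is given in the sources used here.

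Total exon reads were fitted with edgeR 4.0.16 in R 4.3.3 (TMM, robust quasi-likelihood test, 6 groups, 12 libraries, 6 residual degrees of freedom). The filter kept 14232 genes (filterByExpr, minimum count 10, total 15), and p-values were adjusted by Benjamini-Hochberg over them at 0.05. CPM values are TMM-scaled, and RPKM values in the text are CPM per kilobase of the exon length listed. With 2 libraries against 2, an exact permutation test cannot go below p = 0.333, so none is given. Libraries held 4846768 to 7469052 exon reads. Alternatives were DESeq2 1.42.0, other scalings and filters, unique reads, a replicate block, smaller fits, each library left out and, chosen after seeing the data, near-identical copies summed. Same-numbered replicates are not stated to be paired. One blood marker is not reported here by name.

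The members, classes and lists were chosen with earlier results of these data known. Genes named with values were the 8 variants and 12 replication histones with the highest mean RPKM, every member past the threshold in a knockdown or siRNA comparison, the 4 higher and 4 lower members of smallest p between the lines, and the 3 lowest and 3 highest unique shares. H2AFJ, HIST4H4, HIST1H4E, HIST1H3D_2, H2AFY2, the variants with no or few reads, HIST1H2AE, HIST1H2AG, HIST1H2AH, HIST2H2AC, HIST3H2BB, HIST2H2BF, HIST2H3A and HIST2H3C, HIST1H2BG and HIST1H2BC were named after their values were seen.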

Additional observations from a re-analysis of the deposited data

Results flagged for a closer look

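In 3 members every siXRN2 library moved one way against siNT in LN229 and the other way in U251, all 3 of them lower in LN229 and higher in U251, where 2.53% of all 14232 tested genes did the same. HIST1H1C was below both siNT libraries in LN229 and above both in U251, with a difference between the log2 fold changes of -0.76 (SE 0.30, edgeR interaction test, adjusted p = 0.73). HIST1H2AC moved likewise, with a difference of -0.77 (SE 0.25, adjusted p = 0.70). H1F0 did so too, with a difference of -0.76 (SE 0.18, adjusted p = 0.53), and DESeq2 called it. None passed by edgeR, so the difference between the lines was not shown. The LN229 and U251 fits share no libraries in their means.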

How the results depend on the processing

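The count of members lower in LN229 siXRN2 against siNT was 5, was 4 to 6 under 8 alternatives run on all 12 libraries, and was 0 when the line was fitted alone. Against LN229 mock the count of 1 became 4 without the filter, 3 by DESeq2 and 0 in the line alone. Without the filter, where libraries at 0 reads of near-identical copies enter, 2 members were called in U251 siXRN2 against siNT and 1 in LN229 siNT against mock. In U251 siNT against mock 3 were called and in the interaction 2, and all of these calls were copies on chromosome 1. The U251 variant median without the filter was -0.0168, against -0.24 with it. The 2 medians are over different genes, since the unfiltered set adds variants with few reads, such as H2AFY2 and H2AFB1. DESeq2 called 1 member in the interaction. Leaving out 1 library gave 0 to 8 members for LN229 siXRN2 against siNT, 0 to 3 against mock, 0 to 2 for LN229 siNT against mock, 8 to 15 between the lines and 0 to 4 in the interaction, and 0 each time in the 3 comparisons within U251. The LN229 medians then ranged over -0.84 to -0.43 (variants), -0.20 to 0.21 (polyadenylated) and 0.04 to 0.38 (others), and those of U251 over -0.33 to -0.14, 0.31 to 0.59 and 0.22 to 0.37 for the same classes. With a replicate block, and also without the filter, 7 members were called in LN229 against siNT, 6 lower and HIST2H4A higher, and the block moved no other count by over 1.5 times, although HIST3H2A no longer passed between the lines. Same-numbered libraries deviated together little (correlations of -0.05 to 0.06 over 11589 genes). With 2 libraries per group this cannot decide whether same-numbered libraries shared a culture or a batch. The 5 genes called in LN229 siXRN2 against siNT had 105 values over the 21 alternatives, of which 64 passed. By gene these were 18 of 21 for H2AFX, 12 of 21 each for H1F0, H2AFV and H2AFZ, and 10 of 21 for H1FX. Of 1505 single-gene values 43 that passed in neither fit changed sign. The cause of these moves was not tested. Of the 72 replication histones 49 stayed under 10 reads in every library, and these were not tested.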
